A study of Mus musculus with 4 samples.

Results

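Arg1-high tumor macrophages are the cells described here. They were chosen from the droplet single-cell RNA libraries of mouse omental tumors on measured transcript counts. A cell barcode was a member when it held at least 300 genes, at least 500 UMIs (unique molecular identifiers, 1 per transcript molecule caught) and at most 15% mitochondrial UMIs, at least 3 UMIs of the complement genes C1qa, C1qb and C1qc together, no Cd3e, at most 1 Cd79a, under 3 of the proliferation genes Mki67 and Top2a, under 5 of the large peritoneal macrophage genes Alox15, Cd5l, Prg4 and Timd4, at least 2000 CPM of Arg1 and under 2000 CPM of Retnla. CPM stands for UMIs of a gene per 1000000 UMIs, here those of the cell. This gave 1108 cells of the 1856 C1q-positive macrophages (all limits except those on Arg1 and Retnla) and of the 8332 tumor cells that passed the cell filter. The other macrophages were 539 Arg1-low cells, under both limits, and 209 Retnla-high cells, with at least 2000 CPM of Retnla and any Arg1.

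KPCA.A, KPCA.B and KPCA.C name 3 syngeneic cancer lines, whose tumors were taken from the omentum of C57BL6J mice aged 8 weeks. The labels give fallopian tube epithelium as the cell type of all groups. They name no allele or agent that would set the lines apart. Each line has 1 library, made from 4 pooled tumors, so animals cannot be told apart within a library and no difference between lines has a replicate. A KPCA ascites library, from mice aged 9 weeks, was not part of the rule. All tumors were digested with collagenase type I at 37 °C for 30 min and run on a 3' droplet protocol, in which reads report the 3' ends of transcripts.

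Arginase 1, the product of Arg1, splits arginine into ornithine and urea. Macrophages raise it during wound repair, under interleukin 4 or 13, and in hypoxic or lactate-rich tumors, where arginine use withdraws a substrate from nitric oxide synthase and from T cells. Arginase-positive tumor macrophages are known for scavenging, matrix turnover and growth factor release, whereas macrophages exposed to interferon gamma present antigen on MHC class II molecules and release the T cell chemokines Cxcl9 and Cxcl10. The C1q genes mark tissue-resident and monocyte-derived macrophages rather than fresh monocytes.

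The 4 markers proposed for these cells are Arg1 (chr10:24915221-24927484, minus strand, build GRCm38), C1qa (chr4:136895917-136898803, minus strand), the eotaxin gene Ccl24 (chr5:135569937-135573049, minus strand) and the mannose receptor gene Mrc1 (chr2:14229392-14332057, plus strand). Arg1 and C1qa were used to choose the cells, so their levels describe the choice. Promoter windows are shown only for genes with a match. Among these they are the 3 hypoxia genes that stood highest in these cells and the 2 interferon genes that stood lowest. Vegfa and Ero1l stood above Bnip3, but Vegfa had no match and Ero1l no window. The 2 lists were taken because they had the most positive and the most negative medians of the lists described below. Each window runs from 250 bases before to 50 bases after an annotated start in RefSeq on GRCm38.p6, 5′ to 3′ on the gene's strand, with the matched letters in capitals. In the hypoxia genes the capitals mark ACGTG or GCGTG on either strand, the core bound by hypoxia-inducible factors. In the interferon genes they mark a pair of GAAA half-sites with 2 bases between them on either strand, the core of the interferon-stimulated response element.

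Egln3 (chr12:54203825-54204124, minus strand): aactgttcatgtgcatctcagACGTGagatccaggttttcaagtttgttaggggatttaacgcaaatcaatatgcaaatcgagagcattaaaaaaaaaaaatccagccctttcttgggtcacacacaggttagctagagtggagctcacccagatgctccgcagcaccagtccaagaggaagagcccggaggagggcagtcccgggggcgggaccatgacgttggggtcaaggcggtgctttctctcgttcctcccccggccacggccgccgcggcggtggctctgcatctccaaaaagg
Hilpda (chr6:29272376-29272675, plus strand): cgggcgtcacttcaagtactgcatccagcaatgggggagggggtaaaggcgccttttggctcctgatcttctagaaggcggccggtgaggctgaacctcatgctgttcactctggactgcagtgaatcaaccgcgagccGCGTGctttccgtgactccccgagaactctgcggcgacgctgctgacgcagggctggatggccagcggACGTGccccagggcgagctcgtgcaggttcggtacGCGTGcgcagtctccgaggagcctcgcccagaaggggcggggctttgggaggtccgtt
Bnip3 (chr7:138909457-138909756, minus strand): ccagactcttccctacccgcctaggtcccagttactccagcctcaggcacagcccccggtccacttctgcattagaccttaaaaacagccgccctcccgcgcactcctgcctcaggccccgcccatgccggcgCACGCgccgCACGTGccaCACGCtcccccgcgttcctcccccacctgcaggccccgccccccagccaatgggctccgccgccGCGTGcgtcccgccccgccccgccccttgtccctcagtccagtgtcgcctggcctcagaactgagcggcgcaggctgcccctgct
Gbp5 (chr3:142496684-142496983, plus strand): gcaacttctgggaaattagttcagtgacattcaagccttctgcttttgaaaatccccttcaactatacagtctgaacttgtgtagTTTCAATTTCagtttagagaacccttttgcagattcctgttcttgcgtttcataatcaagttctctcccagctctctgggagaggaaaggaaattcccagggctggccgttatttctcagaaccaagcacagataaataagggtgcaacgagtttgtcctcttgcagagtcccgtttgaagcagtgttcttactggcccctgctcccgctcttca
Gbp2 (chr3:142620413-142620712, plus strand): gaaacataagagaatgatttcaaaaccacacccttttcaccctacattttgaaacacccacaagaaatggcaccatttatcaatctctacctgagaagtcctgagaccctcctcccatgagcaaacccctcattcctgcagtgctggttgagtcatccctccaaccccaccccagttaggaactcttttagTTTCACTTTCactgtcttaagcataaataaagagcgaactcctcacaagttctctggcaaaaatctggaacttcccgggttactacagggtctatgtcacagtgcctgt

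The Egln3 window held 1 match, the Hilpda window 3 and the Bnip3 window 5. For Hilpda, which has 2 windows in the table, the window with the most matches is printed. Of 32851 windows, 451 were left out because their bases before the start overlap the gene's own coding sequence in GENCODE, among them 1 of 2 for Vegfa. Of the 13 hypoxia genes called higher below, 10 had a window, and 9 of these held the core, the exception being Vegfa (Bnip3l, Ero1l and Ndrg1 had none to search). The core is common: it stood in 70.1% of the 4068 measured genes with a window and in 46.6% of all 26843 genes, and in 63.6% of the 66 called higher and 44.4% of the 63 called lower. The interferon core stood in 3 of the 5 interferon genes called lower that had a window (Gbp2, Gbp5 and Isg15, not Cxcl9 or Ifi47). It stood in 17.5% of all genes called lower, 9.09% of those called higher, 4.72% of measured genes and 3.97% of all genes. Another motif searched, GAS (TTCNNNGAA, with N for any base), stood in 1 of the same 5 interferon genes. It stood in 7.94% of all genes called lower, 7.58% of those called higher, 8.11% of measured genes and 9.54% of all genes. A match describes letters in a window, not a bound site. Arg1, Slc7a2, Ccl24 and C1qa had no window, and that of Mrc1 held neither core.

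KPCA.A gave 393 members, KPCA.B 68 and KPCA.C 647. In KPCA.A they made up 63.5% of C1q-positive macrophages, with a 95% exact Clopper-Pearson interval of 59.6 to 67.3. The share was 18.9% for KPCA.B (interval 15 to 23.3) and 73.8% for KPCA.C (interval 70.7 to 76.7). All intervals here cover counting error only. The low KPCA.B share depended on the Retnla limit: 103 further KPCA.B macrophages passed both the Arg1 and the Retnla limit, against 16 in KPCA.A and 19 in KPCA.C. Counting them, Arg1 stood at or above 2000 CPM in 66.1%, 47.5% and 75.9% of macrophages from KPCA.A, KPCA.B and KPCA.C. Of all filtered tumor cells, members made up 14.8% in KPCA.A, 2.63% in KPCA.B and 20.9% in KPCA.C, shares that the dissociation can set.

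The labels state 5000 cells per library, and the files held 5703, 3358 and 4110 barcodes for KPCA.A, KPCA.B and KPCA.C, of which 2648, 2586 and 3098 passed the filter. The barcodes over the mitochondrial limit were 53.1%, 22.5% and 24.3% of those deposited. The members' median depth was 6687 UMIs in KPCA.A, 11712.5 in KPCA.B and 11051 in KPCA.C, with 2846588, 901255 and 7883060 UMIs in sum, so KPCA.B values are the least precise. The tumor libraries shared 5 to 19 barcodes pairwise, of which 1 was a member in both KPCA.B and KPCA.C.

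Levels of a class are CPM of its UMIs summed over cells in a library. All 10 genes of the macrophage list (among them Adgre1, Csf1r and Cd68) were detected in members of every library, with 14457, 16888 and 14585 CPM in sum in KPCA.A, KPCA.B and KPCA.C. Of the 10 T cell genes, 9 stood under 10 CPM in every library (50.6, 31.1 and 37.9 CPM in sum), and the 8 B cell genes summed to 13.7, 30 and 15 CPM. The 10 fibroblast genes summed to 54.8, 34.4 and 193 CPM, and the 10 tumor epithelial genes to 254, 153 and 224 CPM, of which the cadherin gene Cdh1 made up 141, 136 and 144 CPM. Of 10 dendritic cell genes 9 stood under 10 CPM. The 9 monocyte genes were all detected, at 970, 1527 and 1284 CPM in sum. Among them Ccr2 had 634, 1214 and 772 CPM, counted over the genes shared with the ascites annotation. The 8 pancreatic acinar genes were all detected, at 2699.7, 691 and 600.1 CPM in sum. The macrophage list includes C1qa, C1qb and C1qc, whose UMIs the rule required. The T and B cell lists include Cd3e and Cd79a, which the rule limited. The name macrophage thus rests on the other members of its list, all detected in every library, and the monocyte genes were detected beside them. Mrc1 had 928, 1044 and 1644 CPM in members from KPCA.A, KPCA.B and KPCA.C, and Ccl24 5101, 4119 and 2751 CPM.

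Arg1 varied widely within the members. Its median per cell was 5967, 5500.4 and 7924 CPM in KPCA.A, KPCA.B and KPCA.C, and the highest cell reached 18626, 18563 and 23401 CPM. The 2000 limit falls within a continuous range rather than in a gap. Just inside it, at 2000 to 2500 CPM, lay 20, 6 and 14 cells from KPCA.A, KPCA.B and KPCA.C, and just outside, at 1500 to 2000 CPM, lay 34, 13 and 15. The cells just inside had 3866, 5496 and 820.2 CPM of Ccl24, those just outside 2605, 2144 and 1343 CPM. For the MHC class II gene H2-Ab1 the values were 4341, 4239 and 2354 CPM just inside and 4792, 4667 and 3899 CPM just outside. H2-Ab1 was thus lower just inside than just outside in each library, and Ccl24 was higher just inside in KPCA.A and KPCA.B but lower in KPCA.C. Mrc1 had 482, 698 and 1048 CPM just inside and 579, 1605 and 1228 CPM just outside, so this marker was lower just inside in each library.

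**Figure D1:**
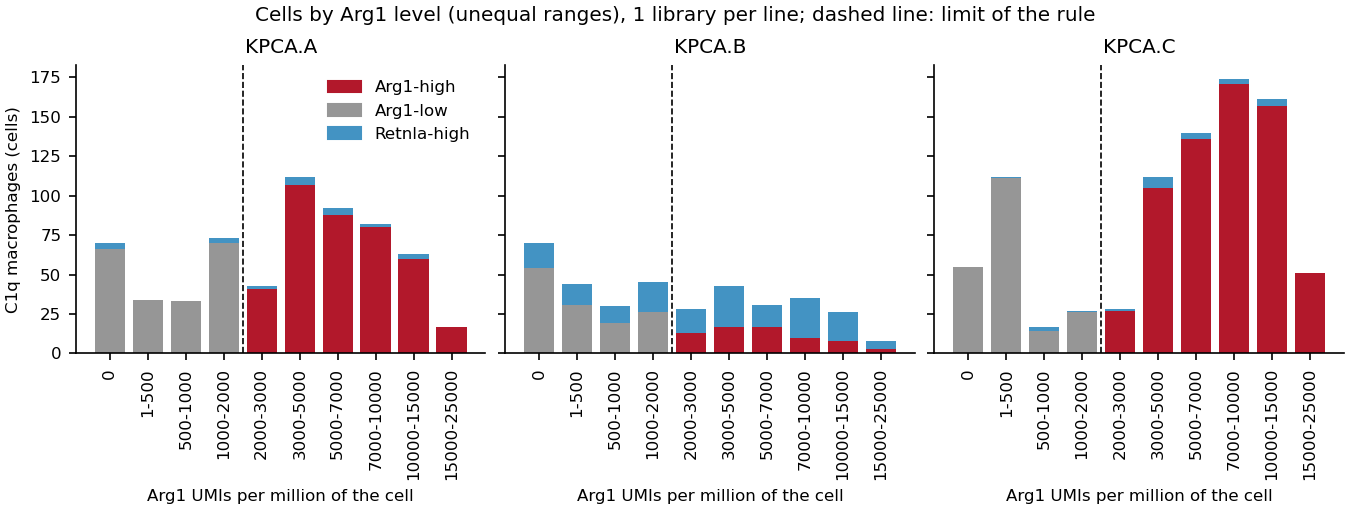
Number of C1q-positive macrophages (y axis) in unequal ranges of Arg1 CPM of the cell (x axis), 1 panel per library, with Arg1-high, Arg1-low and Retnla-high cells stacked and the 2000 limit dashed. The 393, 68 and 647 Arg1-high cells from KPCA.A, KPCA.B and KPCA.C lie right of the limit, and Retnla-high cells are frequent in KPCA.B alone, with 162 cells.

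Other genes also varied widely from cell to cell. Their spread cannot be set against that of Arg1, since the rule left out cells under 2000 CPM of it. Chil3, which codes for the chitinase-like protein Ym1, had a per-cell median of 531, 907 and 877 CPM in KPCA.A, KPCA.B and KPCA.C, while single cells reached 95049.8, 78218 and 161403 CPM. Ccl24 had no UMI in 14.2%, 11.8% and 24.7% of members and reached 58790, 24869.6 and 56003 CPM in the highest cells. Both secreted products were thus concentrated in some of the cells. The fibronectin gene Fn1 was more even, with medians of 4419, 4824 and 4881 CPM and a UMI in 97.2%, 98.5% and 97.2% of members.

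The first comparison asked which genes set Arg1-high cells apart from Arg1-low macrophages of the same library. Since Arg1 in these cells chose the classes, the values describe the classes and carry no test. A gene was measured where both classes together held at least 50 UMIs in every library, and called where its level with 5 CPM added differed at least 1.5-fold in the same direction in all 3 libraries. With all cells, 188 of 6414 genes (2.93%) were called higher in Arg1-high cells and 335 (5.22%) lower, or 261 and 274 under median-of-ratios scaling, which moved the median of all genes by 0.10 (log2). The Arg1-low class carried transcripts of other cell types: in KPCA.C the median depth was 11051 UMIs in Arg1-high cells, against 44446 in Arg1-low cells, whose macrophage list summed to 1472 CPM with 4523 CPM of fibroblast and 2174 CPM of tumor epithelial genes. In KPCA.B it held 35084 CPM of acinar genes. Of the genes called lower, 81 of 335 were highest in tumor epithelial cells or fibroblasts in all 3 libraries. The same share was not counted over all measured genes, so this count alone does not say where the lower calls come from. The leading genes called lower by the naming rule were Clu, Klf5 and Fnbp1l.

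The classes were therefore also compared without cells holding 2 or more UMIs of Krt8, Krt18, Col1a1, Col3a1, Dcn and S100a8 together, and these are called cleared cells. Cleared Arg1-high cells numbered 314, 61 and 391 in KPCA.A, KPCA.B and KPCA.C, against 135, 108 and 45 cleared Arg1-low cells, with median depths of 6411, 10587 and 9737 UMIs against 6161, 9108.5 and 9438. The macrophage list now summed to 13808, 16284 and 13652 CPM in cleared Arg1-high cells and 15256, 15464 and 13288 CPM in cleared Arg1-low cells. Of 5077 measured genes, 87 (1.71%) were called higher in cleared Arg1-high cells and 84 (1.65%) lower, with a median log2 ratio of -0.066 over all genes. Under median-of-ratios scaling the calls were 119 higher and 56 lower. Requiring only 2 libraries gave 130 and 147 calls without KPCA.A, 211 and 182 without KPCA.B, and 117 and 142 without KPCA.C. Of the calls with all cells, 46 higher and 7 lower were also called here, so the lower calls in particular differ between the 2 comparisons. All ratios below are for cleared cells, as the mean log2 ratio ± SD over 3 libraries.

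Cleared Arg1-high cells had more transcripts of an arginine transporter gene. Slc7a2 (chr8:40862396-40922308, plus strand), which codes for the cationic amino acid transporter CAT2, had 1215, 881 and 959.8 CPM in cleared Arg1-high cells from KPCA.A, KPCA.B and KPCA.C, against 184, 181 and 168 CPM in cleared Arg1-low cells of the same libraries (2.47 ± 0.22). The lowest Arg1-high library stood well above the highest Arg1-low library. Gatm, which turns arginine into a creatine precursor, was the other member called, at 1339.6, 736 and 1062 CPM against 746, 373 and 659.7 CPM in cleared Arg1-low cells (0.83 ± 0.15). The rest of the arginine and polyamine list did not follow: of 15 measured members 2 were higher and 0 lower, with a median of 0.0059. Odc1, the enzyme that turns ornithine into putrescine, had 88.6, 91 and 49.5 CPM in cleared Arg1-high cells from KPCA.A, KPCA.B and KPCA.C, against 91.8, 72.5 and 71.8 CPM in Arg1-low cells. Oat, which sends ornithine towards proline, had 53.9, 56.2 and 49.2 CPM against 66.2, 54.6 and 89.8 CPM, and Ass1, which rebuilds arginine from citrulline, had 54.8, 65.6 and 30.8 CPM against 92.9, 68.1 and 92 CPM (-0.73 ± 0.69).

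The nitric oxide synthase gene Nos2, whose enzyme competes with arginase for arginine, was rare and did not reach 50 UMIs in each library. It had 37.5, 8.03 and 66.1 CPM in cleared Arg1-high cells from KPCA.A, KPCA.B and KPCA.C, against 4.65, 2.69 and 2.24 CPM in Arg1-low cells. The Arg1-high over Arg1-low fold was 8.07 (3.03 to 30.3) for KPCA.A, 2.99 (0.639 to 18.5) for KPCA.B and 29.5 (5.25 to 1169) for KPCA.C, with 95% exact intervals that rest on few Arg1-low UMIs. Arg2, the mitochondrial arginase, stood at 5.62, 4.02 and 9.7 CPM against 19.8, 5.37 and 11.2 CPM, and no UMI of Agmat was found in either class. Remaining fixed members (Asl, Srm, Sms, Amd1, Sat1, Slc7a1, Azin1, Oaz1, Oaz2, Pycr1, Aldh18a1, Paox, Smox and Slc3a2) had mean log2 ratios between -0.19 and 0.69.

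Genes of alternative activation were in part higher. The list had 19 measured members, 5 higher and 0 lower, with a median log2 ratio of 0.50. Chil3 (chr3:106147554-106167564, minus strand) had 4614 CPM in KPCA.A, 4949 in KPCA.B and 4869 in KPCA.C for Arg1-high cells, against 482, 981 and 758 CPM for Arg1-low cells (2.75 ± 0.46). Ccl24 had 5461, 4569 and 3470.1 CPM in cleared Arg1-high cells from KPCA.A, KPCA.B and KPCA.C, against 1703, 1324 and 989.5 CPM in cleared Arg1-low cells of the same libraries (1.76 ± 0.068), the most even of these differences between libraries. Fn1 had 5388 CPM in KPCA.A, 4964 in KPCA.B and 5442 in KPCA.C for Arg1-high cells, against 1804, 1326 and 1885 CPM for Arg1-low cells (1.67 ± 0.20), and the transglutaminase genes Tgm2 (1.40) and F13a1 (1.35), which cross-link matrix proteins, were also called. Mrc1 was not: it had 974, 1027 and 1654 CPM in cleared Arg1-high cells from KPCA.A, KPCA.B and KPCA.C, against 613, 1022 and 844 CPM in cleared Arg1-low cells of the same libraries (0.55 ± 0.49). In KPCA.B Mrc1 stood at nearly the same level in both classes, so this marker does not set Arg1-high cells apart there.

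The share of cells with a UMI gave the same order at equal depth. Cleared cells were thinned to 1000 UMIs, and shallower ones were left out (9, 1 and 22 Arg1-high cells and 9, 5 and 3 Arg1-low cells from KPCA.A, KPCA.B and KPCA.C). Ccl24 was seen in 73.1%, 75% and 58.3% of Arg1-high cells from KPCA.A, KPCA.B and KPCA.C, against 42.1%, 28.2% and 28.6% of Arg1-low cells and 0%, 1.82% and 1.79% of B cells, which should lack it. For Slc7a2 the shares were 49.8%, 33.3% and 47.2% of Arg1-high cells, 17.5%, 13.6% and 16.7% of Arg1-low cells and 4.55%, 1.16% and 3.57% of B cells. Chil3 was seen in 53.8%, 58.3% and 66.7% of Arg1-high cells and 21.4%, 32% and 47.6% of Arg1-low cells, but also in 18.2%, 18.7% and 51.8% of B cells and 16.1%, 22.7% and 49% of T cells, which sets a high background of free RNA, and the KPCA.C share in Arg1-low cells lies below it. Mrc1 was seen in 51.8%, 60% and 66.1% of Arg1-high cells, 35.7%, 43.7% and 40.5% of Arg1-low cells and 9.09%, 2.65% and 3.57% of B cells.

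**Figure D2:**
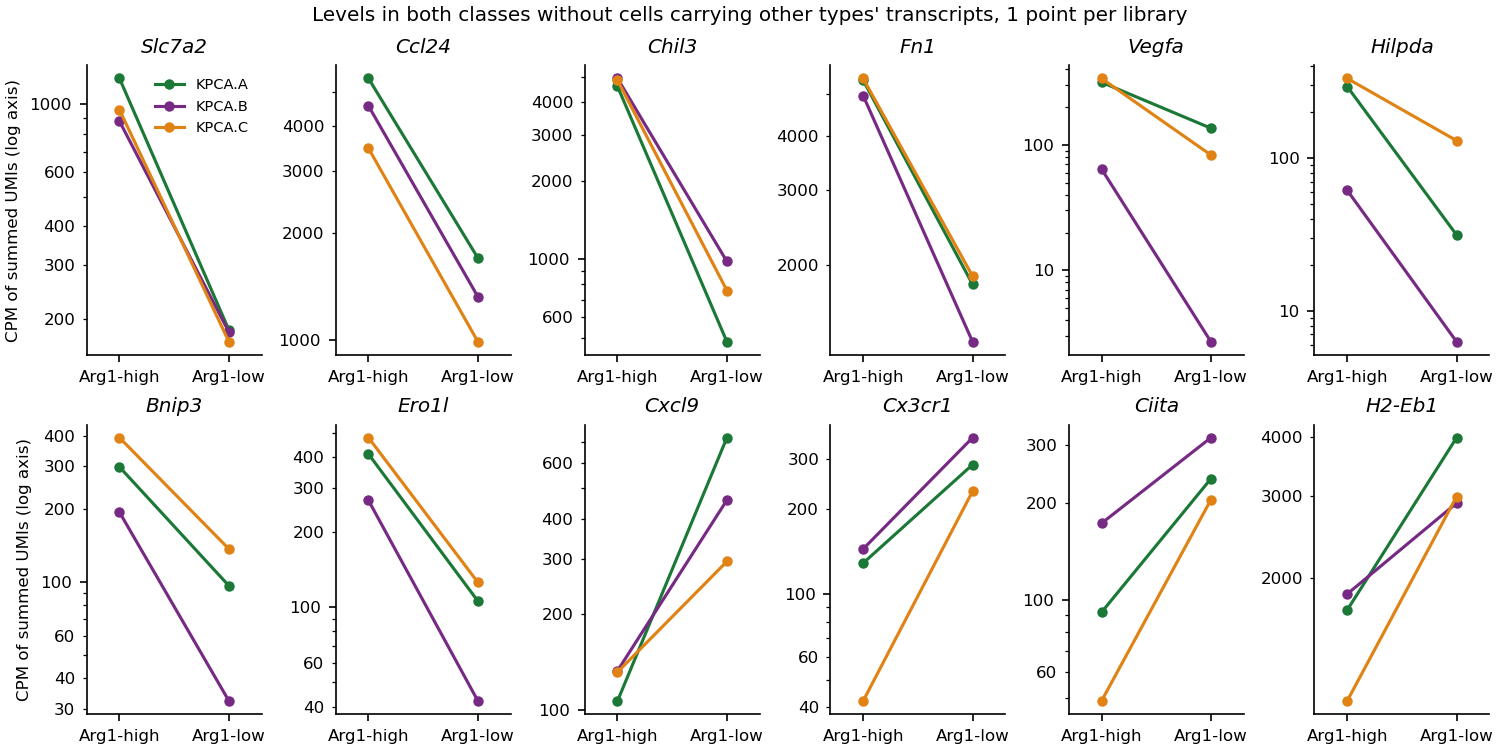
Level of 12 genes in CPM of summed UMIs (log axis) in cleared Arg1-high and Arg1-low cells, with 1 line per library and no error bars, since each point is 1 library. The first 8 genes stand higher in Arg1-high cells in all 3 libraries, and Cxcl9, Cx3cr1, Ciita and H2-Eb1 stand lower.

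In cleared cells, hypoxia genes made up the list with the highest median. It had 17 measured members, 13 higher and 0 lower, with a median log2 ratio of 1.34, and all 17 measured members stood above 0 in each library. Of all 5077 measured genes, 788 stood above 0 in each library. With all cells, 3 of 20 measured hypoxia genes were higher and 0 lower, with a median of 0.55, and -0.057 in KPCA.C alone. The inflammatory list then had the highest median, 1.44, so the top rank of the hypoxia list holds for cleared cells. Egln3, an oxygen-sensing prolyl hydroxylase whose promoter is printed above, had 188 CPM in KPCA.A, 104 in KPCA.B and 184 in KPCA.C for Arg1-high cells, against 17.4, 0.896 and 24.7 CPM for Arg1-low cells (3.33 ± 0.80). Hilpda, which blocks lipid breakdown in lipid droplets, had 294, 61.6 and 333 CPM in cleared Arg1-high cells from KPCA.A, KPCA.B and KPCA.C, against 31.4, 6.27 and 130.1 CPM in cleared Arg1-low cells of the same libraries (2.31 ± 0.89). Vegfa, the vascular growth factor gene, had 316 CPM in KPCA.A, 64.3 in KPCA.B and 339 in KPCA.C for Arg1-high cells, against 136, 2.69 and 83 CPM for Arg1-low cells (2.11 ± 0.999). KPCA.B had the lowest Arg1-high level of all 3 genes, and its Arg1-low cells held so little (1 UMI of Egln3, 3 of Vegfa) that the folds there, 117 (20.3 to 4664) and 23.9 (7.71 to 120.1), have wide 95% exact intervals.

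The other hypoxia members called were Ero1l (2.11), an oxidase for protein folding, Bnip3 (1.83) and Bnip3l (0.79), which direct mitochondria to degradation, Slc2a1 (1.53), the glucose transporter, Pdk1 (1.26), which keeps pyruvate out of mitochondria, and Mxi1, Ndrg1, Fam162a, Mif and Egln1 (1.55, 1.39, 1.28, 1.18 and 0.97). Hif1a, which codes for the oxygen-sensitive transcription factor itself, had 729, 645 and 794 CPM in cleared Arg1-high cells from KPCA.A, KPCA.B and KPCA.C, against 715, 577 and 868 CPM in cleared Arg1-low cells of the same libraries (0.020 ± 0.14). Its transcript thus differed less between the classes than the SD of its ratios, and the activity of the factor was not measured. In the glycolysis list there were 16 measured members, 8 higher and 0 lower, with a median log2 ratio of 0.78. The lactate exporter gene Slc16a3 (1.29) and the enzyme genes Pgk1 (1.19) and Pfkl (1.15) led it. Neutrophils, tumor epithelial cells and fibroblasts also held these transcripts, with Egln3 at 587 CPM in KPCA.A neutrophils and 285 CPM in KPCA.C fibroblasts. How far their RNA enters the difference was not tested. B cells thinned to 1000 UMIs showed Egln3 in 0%, 0% and 0% and Hilpda in 0%, 0.331% and 1.79% of cells. T cells showed Egln3 in 3.23%, 2.13% and 5.1% and Hilpda in 6.45%, 4.96% and 5.1%. Arg1-high cells showed Egln3 in 16.1%, 6.67% and 13.8% and Hilpda in 22%, 6.67% and 25.7%, against 3.17%, 0% and 2.38% and 3.97%, 0% and 4.76% of Arg1-low cells. The Arg1-low shares thus lie at or below those of T cells, and the KPCA.B shares in Arg1-high cells rest on 4 cells each.

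Matrix and angiogenic genes were also higher. The list had 17 measured members, 9 higher and 0 lower, with a median log2 ratio of 0.995. Spp1, the osteopontin gene, had 2708 CPM in KPCA.A, 1013 in KPCA.B and 2661 in KPCA.C for Arg1-high cells, against 541, 152 and 696 CPM for Arg1-low cells (2.31 ± 0.38), but tumor epithelial cells held more (7794, 2686 and 16258 CPM) and T cells, which should lack it, showed it in 32.3%, 0.709% and 38.8% of cells at 1000 UMIs. The matrix protease gene Mmp19 (1.58 ± 0.58), the thrombospondin gene Thbs1 (1.49) and the protease inhibitor gene Timp1 (1.35) were higher. F7, which codes for the tissue factor partner factor VII, was among the leaders by the naming rule and had 187, 262 and 179 CPM in cleared Arg1-high cells from KPCA.A, KPCA.B and KPCA.C, against 51.1, 51.9 and 89.8 CPM in cleared Arg1-low cells of the same libraries (1.65 ± 0.65).

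The leading 12 higher genes by that rule also held Prtn3 (2.39 ± 0.88), a serine protease gene of the neutrophil and monocyte lineages, the metallothionein gene Mt2 (2.34 ± 0.38) and Cdh1, the E-cadherin gene (1.60 ± 0.12), beside Chil3, Slc7a2, Hilpda, Vegfa, Ero1l, Bnip3, Ccl24, Fn1 and F7. Cdh1 had 146 CPM in KPCA.A, 122 in KPCA.B and 161 in KPCA.C for Arg1-high cells, against 45.3, 33.1 and 53.9 CPM for Arg1-low cells, while the tumor epithelial list as a whole summed to 209, 134 and 203 CPM in Arg1-high cells and 134, 53.7 and 96.5 CPM in Arg1-low cells. E-cadherin is known from macrophages under interleukin 4 in mice as well as from epithelia, and the part of tumor RNA in this difference was not tested.

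Genes of uptake and degradation had medians nearer to that of all genes. The lipid-associated list had 19 measured members, 3 higher and 0 lower, with a median log2 ratio of 0.42. The fatty acid binding gene Fabp5 (1.37 ± 0.46), the scavenger receptor gene Msr1 (0.93) and the cathepsin gene Ctsd were called higher, while Trem2, the lipid receptor gene, had 232, 279.8 and 237 CPM in Arg1-high cells against 161, 151 and 128 CPM in Arg1-low cells (0.75 ± 0.20) and was not called. The lysosome and protease list had 21 measured members, 2 higher and 0 lower, with a median log2 ratio of 0.086, and the called genes were the cathepsins Ctsl (1.41 ± 0.25) and Ctsd (0.79). The complement and scavenger list had 17 measured members, 2 higher and 1 lower, with a median log2 ratio of -0.039. Its integrin gene Itgam was higher (0.96) and the complement factor B gene Cfb lower (-1.06). In the iron and heme list, 0 of 9 measured members were called, with a median of 0.21, and Hmox1, the heme oxygenase gene, had 412, 576 and 313 CPM in cleared Arg1-high cells from KPCA.A, KPCA.B and KPCA.C, against 299, 110.1 and 130.1 CPM in cleared Arg1-low cells of the same libraries.

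MHC class II genes stood lower in Arg1-high cells. The list had 11 measured members, 0 higher and 3 lower, with a median log2 ratio of -0.78, and 8 members were below 0 in every library and 0 above. Of all 5077 measured genes, 1429 were below 0 in every library and 788 above. Ciita, the master regulator of these genes, had 91.9 CPM in KPCA.A, 173 in KPCA.B and 49 in KPCA.C for Arg1-high cells, against 237, 317 and 204 CPM for Arg1-low cells (-1.38 ± 0.55). The beta chain gene H2-Eb1 had 1709.9, 1850.1 and 1093 CPM in cleared Arg1-high cells from KPCA.A, KPCA.B and KPCA.C, against 3992, 2894 and 2989 CPM in cleared Arg1-low cells of the same libraries (-1.10 ± 0.41), and the co-stimulatory receptor gene Cd40 was lower too (-0.94 ± 0.20). H2-Ab1 (-0.87 ± 0.35) and the invariant chain gene Cd74 (-0.68 ± 0.34) stood lower without passing 1.5-fold in every library. With the cells carrying other types' transcripts kept, the list's median was 0.62. By library it was then -0.16, 0.10 and 2.10 in KPCA.A, KPCA.B and KPCA.C. Its direction with all cells thus differed between libraries, and it also turned under other settings given below.

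Interferon response genes had the most negative median. The list had 17 measured members, 0 higher and 9 lower, with a median log2 ratio of -0.90, and 16 were below 0 in every library. Beside this, 1429 of all 5077 measured genes were below 0 in every library. With all cells, 0 of 19 measured members were higher and 1 lower, and the median was -0.037, beside -0.041 over all genes. By library it was -0.62, -0.51 and 0.83 in KPCA.A, KPCA.B and KPCA.C, so only the KPCA.C direction turned with clearing. Iigp1, an immunity-related GTPase, had 68.9 CPM in KPCA.A, 5.35 in KPCA.B and 31.8 in KPCA.C for Arg1-high cells, against 218, 157 and 98.7 CPM for Arg1-low cells (-2.35 ± 1.40). Cxcl9, a T cell chemokine induced by interferon gamma, had 106, 133 and 131 CPM in cleared Arg1-high cells from KPCA.A, KPCA.B and KPCA.C, against 724, 459 and 294 CPM in cleared Arg1-low cells of the same libraries (-1.87 ± 0.79). The guanylate-binding protein genes Gbp2 (-1.10) and Gbp5 (-1.27), whose promoters are printed above, and Ifi27l2a (-1.09), Isg15 (-0.90), Ifi47 (-0.82) and Ciita, which is also on this list, were also called. Beside these values, the monocyte list summed to 1074, 1633 and 1480.3 CPM in Arg1-high cells and 1479, 2081 and 2477 CPM in Arg1-low cells from KPCA.A, KPCA.B and KPCA.C, and the dendritic cell list to 48.7, 83 and 47 CPM and 68.5, 135 and 213 CPM. The part of monocytes and dendritic cells in the difference was not tested.

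The leading 12 lower genes by the naming rule were Ly6i, Cxcl9, Cx3cr1, Clec12a, Rogdi, Ciita, Ms4a4c, Slamf8, Slamf9, Lifr, Gbp5 and Plac8, with mean log2 ratios between -1.93 and -1.26. With all cells, 4 of them turned direction: Cx3cr1 (0.20), Clec12a (0.19), Ms4a4c (0.065) and Slamf9 (0.23). Cx3cr1, the fractalkine receptor gene of monocyte-derived and patrolling cells, had 129, 145 and 42 CPM in cleared Arg1-high cells from KPCA.A, KPCA.B and KPCA.C, against 287, 357 and 231 CPM in cleared Arg1-low cells of the same libraries (-1.58 ± 0.66). Plac8, a monocyte gene, had 159 CPM in KPCA.A, 131 in KPCA.B and 269.8 in KPCA.C for Arg1-high cells, against 304, 299 and 898 CPM for Arg1-low cells (-1.26 ± 0.41). Clec12a, an inhibitory lectin gene, differed by -1.42 ± 0.73, and the SLAM family genes Slamf8 and Slamf9 by -1.32 ± 0.43 and -1.31 ± 0.45.

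Chemokine genes lay on both sides: the list had 15 measured members, 3 higher and 2 lower, with a median log2 ratio of 0.59. Ccl24, Ccl6 (1.14) and Cxcl2 (1.01) were higher, and Cxcl9 and Ccl5 (-1.74) lower. Of 11 measured inflammatory genes 1 was higher (Cxcl2) and 1 lower (Marcksl1, -0.98), with a median of 0.24. None of the 12 measured immune suppression genes passed 1.5-fold in all libraries (median 0.11). Cd274, which codes for PD-L1, had 119, 28.1 and 98.7 CPM in cleared Arg1-high cells from KPCA.A, KPCA.B and KPCA.C, against 83.7, 26 and 74 CPM in cleared Arg1-low cells of the same libraries, and Tgfb1 349.7, 313 and 293 CPM against 367, 332 and 263 CPM. Macrophage identity genes had 30 measured members, 1 higher and 1 lower, with a median log2 ratio of -0.0014. The calls were Nfil3 (0.79), a transcription factor gene, and Il10ra (-0.79 ± 0.019), the interleukin 10 receptor gene. Oxidative phosphorylation genes, 26 measured, had 0 calls and a median of -0.14. The integrated stress response list, 9 measured, had 0 calls (0.19), and the dissociation stress list, 17 measured, had 1 gene higher, Ier3 (1.17), at a median of 0.18.

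**Figure D3:**
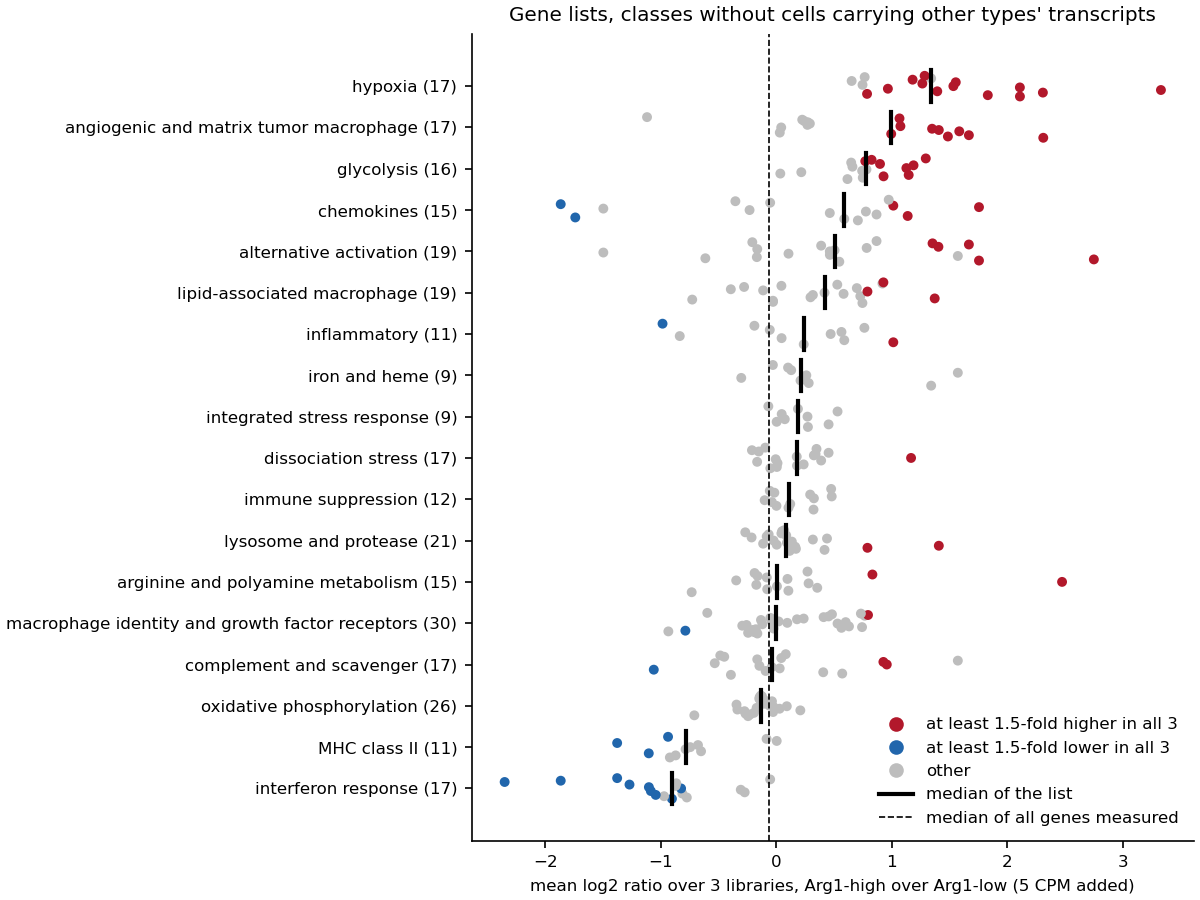
Mean log2 ratio of Arg1-high over Arg1-low cleared cells (x axis, 5 CPM added) for each measured gene of 18 lists, 1 point per gene, with the list's median as a bar and the median of all genes dashed. The hypoxia list lies highest, at a median of 1.34, and the interferon and MHC class II lists lowest, at -0.90 and -0.78.

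The same pattern was then read within the members, by Arg1 level. Cells were split at 5000 and 10000 CPM of Arg1, which gave 148, 168 and 77 cells from the low to the high range in KPCA.A, 30, 27 and 11 in KPCA.B and 132, 307 and 208 in KPCA.C. These are descriptions along the measure that chose the cells. Values are shares of all UMIs, so they are not independent of each other.

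Slc7a2 stood higher in each higher range: 921, 1105 and 1870.5 CPM in KPCA.A, 361, 1375 and 1821 CPM in KPCA.B and 730.1, 1063 and 1267 CPM in KPCA.C, from low to high Arg1. Chil3 did so too, with 3240.1, 3981 and 5929.5 CPM in KPCA.A, 2001, 8309.8 and 12026 CPM in KPCA.B and 2183, 4247 and 5554 CPM in KPCA.C. The summed hypoxia list was 4211, 5416 and 7014 CPM in KPCA.A and 4616, 5535 and 6655 CPM in KPCA.C. In KPCA.B it was 2954, 4998 and 4529.7 CPM, highest in the middle range, with 11 cells in the top one. Ccl24 stood at 3688, 5413 and 7136 CPM in KPCA.A, but at 4022, 3641 and 5450 CPM in KPCA.B and 2217, 1949 and 4172 CPM in KPCA.C, where the middle range was lowest. Mrc1, which the class comparison left uncalled, stood at 625, 926 and 1523 CPM in KPCA.A and 1264, 1597 and 1929 CPM in KPCA.C, but at 1275, 764 and 1039.7 CPM in KPCA.B without an order.

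Antigen presentation ran the other way. The summed MHC class II list was 28725, 19871 and 13362 CPM in KPCA.A, 26033, 24082 and 16331 CPM in KPCA.B and 20928, 16277 and 11450.1 CPM in KPCA.C from low to high Arg1, lower at every step in all 3 libraries. The summed interferon list was 2057, 1687 and 814 CPM in KPCA.A, 2115, 1398 and 1278 CPM in KPCA.B and 2317, 1929 and 1346 CPM in KPCA.C, with the same order. Cx3cr1 was 244, 100.1 and 31.1 CPM in KPCA.A, 201, 101 and 33.1 CPM in KPCA.B and 92.6, 80.5 and 27.8 CPM in KPCA.C. The macrophage receptor gene Csf1r had no such order, at 500.3, 581 and 505 CPM in KPCA.A, 601, 639.9 and 371 CPM in KPCA.B and 647, 569 and 575 CPM in KPCA.C.

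**Figure D4:**
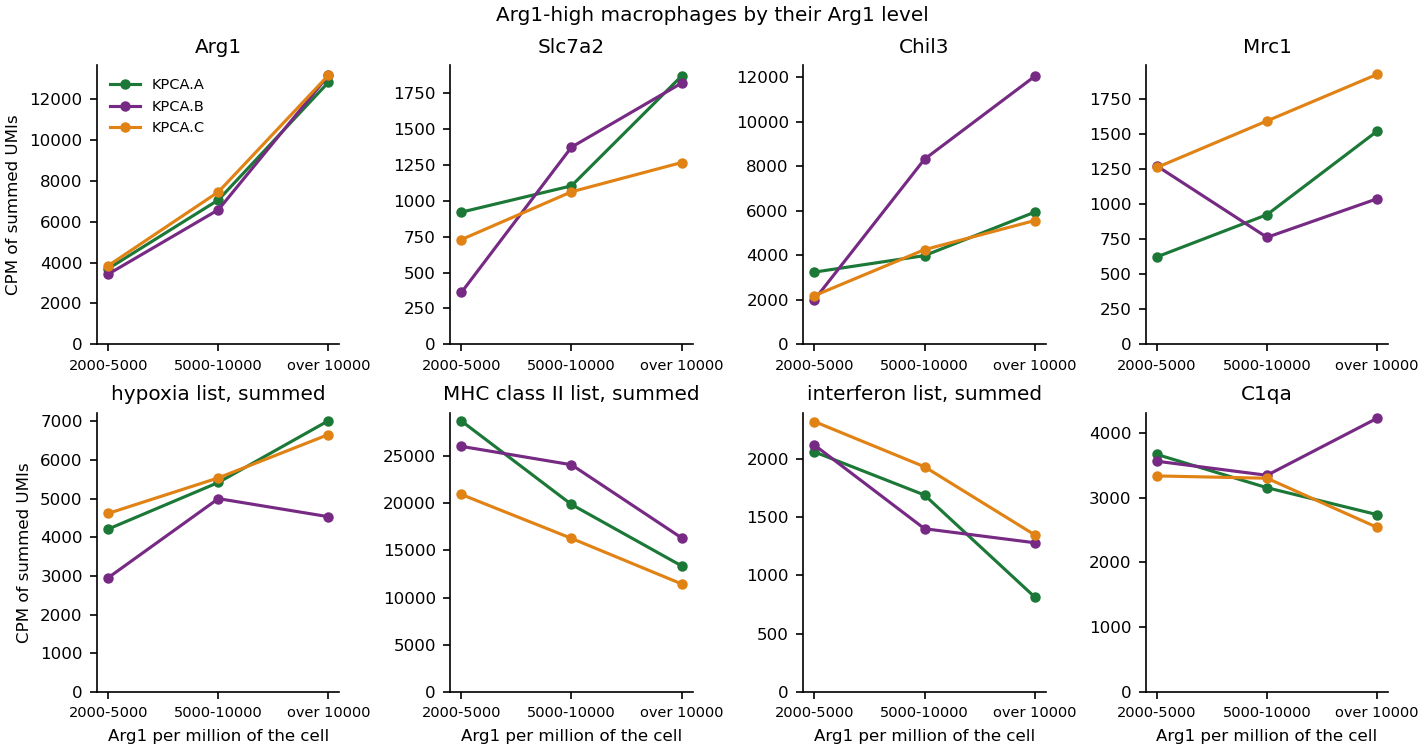
Level in CPM of summed UMIs (y axis, from 0) of 5 genes and 3 summed lists in Arg1-high cells at 2000 to 5000, 5000 to 10000 and over 10000 CPM of Arg1 (x axis), 1 line per library without error bars. MHC class II and interferon sums are lower at each step in all 3 libraries, and Slc7a2 and Chil3 are higher.

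The next comparison asked how Arg1-high cells differed between the 3 tumor lines. All members entered, a gene was measured with at least 50 UMIs over the 3 libraries, and it was called where 1 line stood at least 2-fold beyond both others with 5 CPM added. With 1 library per line there is no replicate check, and line, pool and library cannot be told apart. The Retnla limit of the rule also left out 103 KPCA.B macrophages that passed the Arg1 limit, against 16 in KPCA.A and 19 in KPCA.C. The lines were not compared without that limit, so its part in the differences was not tested. Ccl17 and Ppbp, named for KPCA.B below, also differed between its Arg1-high and Retnla-high cells. Of 9533 measured genes, KPCA.B had 41 higher (0.43%) and 229 lower (2.4%), KPCA.C 41 higher (0.43%) and 9 lower (0.0944%), and KPCA.A 34 higher (0.357%) and 3 lower (0.0315%). KPCA.B, with the fewest members, thus held most of the calls.

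KPCA.B members stood higher in Ccl17, a chemokine gene for CCR4-bearing T cells, at 298 CPM, against 47.8 in KPCA.A and 36 in KPCA.C, which is 6.25-fold (95% exact interval 5.06 to 7.74) above the nearer line. The eosinophil-type ribonuclease genes Rnase2a and Ear2 were at 561 and 305 CPM in KPCA.B, 5.09-fold (95% exact interval 4.41 to 5.88) and 4.26-fold (95% exact interval 3.54 to 5.13) above KPCA.A. The lipoprotein lipase gene Lpl had 554 CPM in KPCA.B, against 113 in KPCA.A and 60.5 in KPCA.C (4.91-fold, 95% exact interval 4.26 to 5.67), and the platelet-type chemokine gene Ppbp 54.4 CPM (5.95-fold, 95% exact interval 3.63 to 9.98). These 5 genes lead the 18 of 41 that the naming rule allows.

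KPCA.B members stood lower in inflammatory genes. Osm, which codes for the cytokine oncostatin M, had 52.1 CPM in KPCA.B, against 367 in KPCA.A and 372 in KPCA.C, 7.05-fold (95% exact interval 5.26 to 9.65) below the nearer line. Il6 had 4.44 CPM in KPCA.B (4 UMIs), against 47.8 and 85.5 in KPCA.A and KPCA.C (10.8-fold, 95% exact interval 4.11 to 40.1). Rgs1, a damper of chemokine receptor signals, had 139.8 CPM in KPCA.B, against 926 and 1003 (6.62-fold, 95% exact interval 5.54 to 7.98). Ifitm1, an interferon-induced membrane gene (7.8-fold, 95% exact interval 5.19 to 12.3), and Nr4a1, an immediate early nuclear receptor gene (8.15-fold, 95% exact interval 3.93 to 20.4), complete the leading 5 of the 67 that the rule allows.

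As lists, 14 of 22 measured inflammatory genes were called lower in KPCA.B, with median log2 differences of -1.31 from KPCA.A and -1.33 from KPCA.C. The dissociation stress list, genes known to be induced by enzymatic digestion, was lower as well, with 11 of 20 called and medians of -1.40 and -1.30. Its part in the inflammatory difference was not tested. The hypoxia list had 4 of 25 called lower in KPCA.B, with medians of -0.47 and -0.62. Oxidative phosphorylation genes had medians of 0.47 and 0.34, and lipid-associated genes 0.31 and 0.29, beside -0.0014 and -0.018 over all genes. MHC class II genes stood at 0.059 against KPCA.A and 0.59 against KPCA.C. KPCA.C stood below KPCA.A in all 12 measured MHC class II genes, with a median of -0.50, though none passed 2-fold.

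KPCA.C members stood higher in Thbs1, the thrombospondin 1 gene, at 1489 CPM, against 614 in KPCA.A and 172 in KPCA.B (2.42-fold above the nearer line, 95% exact interval 2.3 to 2.55). Cd163, the haptoglobin-hemoglobin scavenger receptor gene, had 139.5 CPM in KPCA.C, against 61.1 in KPCA.A and 16.6 in KPCA.B (2.28-fold, 95% exact interval 1.94 to 2.69). The glucocorticoid-induced gene Fkbp5 (3.19-fold, 95% exact interval 2.61 to 3.94) and the adhesion gene Jaml (2.48-fold, 95% exact interval 2.17 to 2.84) were also higher. The members from KPCA.C stood lower in the macrophage integrin gene Itgax (67.2 CPM, against 152 in KPCA.A and 168 in KPCA.B, 2.26-fold, 95% exact interval 1.98 to 2.57), Cx3cr1 (2.08-fold, 95% exact interval 1.69 to 2.54), Cxcl10 (2.44-fold, 95% exact interval 2.02 to 2.93), Gpnmb (4.13-fold, 95% exact interval 2.88 to 5.96) and Tnip3 (3.15-fold, 95% exact interval 2.52 to 3.91).

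KPCA.A members stood higher in Saa3, an acute-phase apolipoprotein gene, at 712 CPM, against 122 in KPCA.B and 209.8 in KPCA.C (3.4-fold, 95% exact interval 3.18 to 3.63). It was the only one of the 34 that the rule allows, and many of the rest were pancreatic secretory genes such as Pnlip, Cpa1 and Prss2. The acinar list summed to 2699.7 CPM in KPCA.A members and to 3131 CPM in its cleared Arg1-low cells, so these transcripts were spread over both classes.

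**Figure D5:**
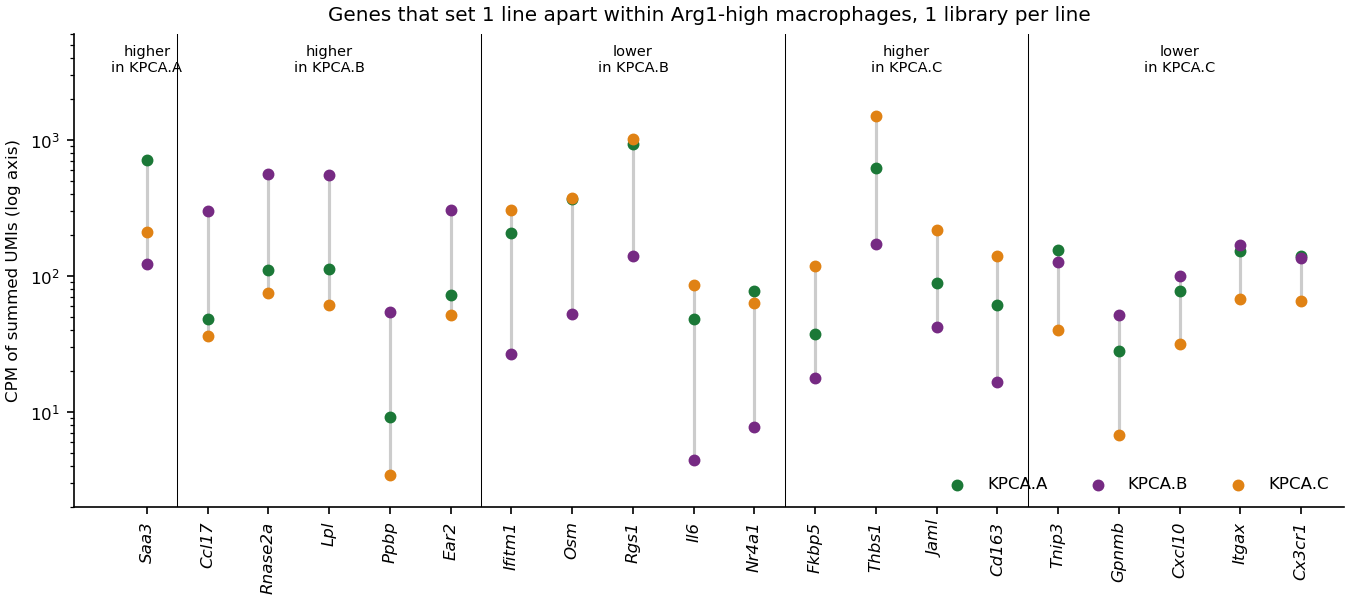
Level in CPM of summed UMIs (log axis) of 20 genes named between lines, in Arg1-high cells, 1 point per library without error bars, grouped by the line that stands apart. Ccl17 stands at 298 CPM in KPCA.B above both other lines, and Osm at 52.1 CPM below both.

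The last comparison set Arg1-high cells against Retnla-high macrophages. Retnla codes for RELM-alpha, another product of interleukin 4 signalling. KPCA.B alone had at least 50 cells in both classes, 68 Arg1-high and 162 Retnla-high, so the values below come from 1 library. Arg1 was close in both, 6242 CPM in Arg1-high cells, against 6058 CPM in Retnla-high cells, and so was Mrc1, with 1044 CPM in Arg1-high cells, against 1028 CPM in Retnla-high cells. Of 6325 measured genes, 108 (1.71%) stood at least 2-fold higher in Arg1-high cells and 171 (2.7%) at least 2-fold lower.

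Some genes known from resident macrophages stood lower in Arg1-high cells. These genes were chosen after their values were seen, and others of this kind did not follow: Pf4 had 321 CPM in Arg1-high cells, against 292 CPM in Retnla-high cells, Stab1 155 CPM against 183 CPM and F13a1 373 CPM against 226 CPM. Lyve1, a hyaluronan receptor gene, had 20 CPM in Arg1-high cells, against 321 CPM in Retnla-high cells, 16.1-fold lower (95% exact interval 10.1 to 27.3). The folate receptor gene Folr2 had 27.7 CPM in Arg1-high cells, against 255 CPM in Retnla-high cells, 9.18-fold lower (95% exact interval 6.15 to 14.3). Vsig4, a complement receptor gene of resident macrophages, had no UMI in Arg1-high cells, against 42.9 CPM in Retnla-high cells, which is at least 12.9-fold lower when 3 UMIs over the class are taken as the limit. The complement gene C4b (9.44-fold lower, 95% exact interval 6.04 to 15.6), the protease inhibitor gene Timp2 (4.87-fold lower, 95% exact interval 4.25 to 5.61), the monocyte chemokine gene Ccl8 (4.27-fold lower, 95% exact interval 3.83 to 4.77), Cd163 (4.19-fold lower, 95% exact interval 2.46 to 7.69) and the scavenger receptor gene Marco (4.46-fold lower, 95% exact interval 2.74 to 7.69) were lower too. Of 20 measured complement and scavenger genes 7 were at least 2-fold lower and 0 higher, with a median log2 ratio of -0.40. The fibroblast genes Dcn, Col1a2 and Sparc were also lower with all cells, but in cleared cells Dcn stood at 1.34 CPM in Arg1-high and 2.12 CPM in Retnla-high cells, while Lyve1 stood at 24.1 and 336 CPM.

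They stood higher in inflammatory and hypoxia genes. Cxcl10, a T cell chemokine gene, had 99.9 CPM in Arg1-high cells, against 1.93 CPM in Retnla-high cells (4 UMIs), 51.8-fold higher (95% exact interval 19.6 to 194). Il1b, the interleukin 1 beta gene, had 236 CPM in Arg1-high cells, against 17.8 CPM in Retnla-high cells, 13.3-fold higher (95% exact interval 9.32 to 19.4). Ccl17 was 12.4-fold higher (95% exact interval 9.14 to 17.1), Ppbp 16.1-fold higher (95% exact interval 7.27 to 42.2), the neutrophil collagenase gene Mmp8 8.69-fold higher (95% exact interval 4.64 to 17.5) and the versican gene Vcan 6.47-fold higher (95% exact interval 3.88 to 11.2). Vegfa had 63.2 CPM in Arg1-high cells, against 11.1 CPM in Retnla-high cells, 5.71-fold higher (95% exact interval 3.46 to 9.71). Of 20 measured hypoxia genes 8 were at least 2-fold higher and 0 lower, with a median of 0.66, beside 0.039 over all genes. The dissociation stress list had a median of 0.61, with 1 of 17 at least 2-fold higher, and its part was not tested.

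Not all genes that set Arg1-high apart from Arg1-low cells were higher here. Slc7a2 had 985 CPM in Arg1-high cells, against 2183 CPM in Retnla-high cells, and Chil3 had 6044 CPM in Arg1-high cells, against 10322 CPM in Retnla-high cells. Ccl24 had 4119 CPM in Arg1-high cells, against 2771 CPM in Retnla-high cells, 1.49-fold higher (95% exact interval 1.43 to 1.55). Fn1 had 5057 CPM in Arg1-high cells, against 5407 CPM in Retnla-high cells. In KPCA.B, Slc7a2 and Chil3 thus stood higher in the Retnla-high macrophages. The MHC class II list had a median of -0.093, with H2-Ab1 at 3363 CPM in Arg1-high cells, against 3586 CPM in Retnla-high cells.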

How the data were processed

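The authors deposited raw UMI counts for every gene and barcode. Per the file headers the matrices of the tumors came from Cell Ranger 4.0.0 and that of ascites from 3.0.2. The submitters' processing notes give 3.1.0 and mm10. Barcodes and gene names, of unit other, stand in tables that the authors deposited with each matrix. Each line has 1 library of 4 pooled tumors (samples grouped by title), so no test or p-value was computed, and error is given as exact Poisson-type, Clopper-Pearson or conditional 95% intervals, which cover counting error only, or as the SD over 3 libraries.

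CPM were computed from the UMIs of all cells of a class in a library. Ratios were taken within a library with 5 CPM added. The 13 genes of the membership rule were left out of list counts. No doublet caller was run; cells with 2 or more UMIs of Krt8, Krt18, Col1a1, Col3a1, Dcn and S100a8 together were removed as an alternative instead, and the biology is described from that alternative because the Arg1-low class held transcripts of other cell types, a choice made after seeing the data. Detection shares used cells thinned to 1000 UMIs.

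Named genes were the 4 markers; the 12 genes called higher and 12 called lower with the largest mean ratio, without ribosomal, mitochondrial, immunoglobulin and unnamed gene models and without genes below 50% of the level of another cell class with at least 20 cells in 2 or more libraries; the 3 leading members of each list; 5 genes per line and direction with at least 50 CPM; and the arginine and polyamine list. Other genes with values in the text were chosen after their values were seen. Some results that these rules cover are not reported here, though counts and sums over lists include all members. The members and lists were chosen with earlier results of these data known. Alternatives were other cell filters, Arg1, Retnla and C1q limits, cell removal, scaling, pseudocounts, minimum counts and leaving out each library. The scripts were tested on simulated data. With counts simulated for cleared cells, the rule called 80% and 100% of genes set 2-fold and 3-fold higher. It called 50% and 72% of genes set 2-fold and 3-fold lower, so lower changes were missed more often than higher ones in this simulation. Only the Arg1-high counts were changed there, and the counts varied by counting error alone. The tools were matplotlib 3.10.9, pandas 2.3.3, scipy 1.17.1 and numpy 2.4.6 in Python 3.11.15. Gene positions are those of GENCODE on GRCm38 and promoters those of RefSeq on GRCm38.p6, without windows in coding sequence of the same gene.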

Additional observations from a re-analysis of the deposited data

Results flagged for a closer look

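In the KPCA ascites library, which the comparisons did not use, 943 filtered cells held at least 3 C1q UMIs. The limit on large peritoneal macrophage genes left out 521 of them, against 9, 97 and 88 cells in KPCA.A, KPCA.B and KPCA.C. Of the 421 C1q-positive macrophages that passed all other limits, 348 met the Arg1 and Retnla limits (82.7%, 95% exact interval 78.7 to 86.2). This was singled out as a signal outside the tumors. Of these cells, 183 held 2 or more UMIs of the genes used for clearing, and S100a8 stood at 1190.4 CPM, against 8.11, 8.91 and 5.61 CPM in Arg1-high cells from KPCA.A, KPCA.B and KPCA.C. They had a median of 2567 UMIs, and fluid, age, software version and library cannot be told apart. Over the 30406 genes shared by both annotations, they held 5553 CPM of Arg1, 1190.3 CPM of Mrc1, 339 CPM of Ccl24 and 9280.4 CPM of Chil3. Slc7a2 stood at 135 CPM, Egln3 at 12.9 CPM and Vegfa at 8.58 CPM, each below the value in the Arg1-high cells of every tumor. The MHC class II genes H2-Ab1 and Cd74 stood at 319.6 and 703 CPM, also below every tumor.

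Some genes had an Arg1-high over Arg1-low fold above 1.5 in 1 line and below its inverse in another, in cleared cells. The difference between lines was not tested, since each line has 1 library, and the intervals are 95% exact ones for counting error. For the chemokine gene Ccl17 the fold was 2.38 in KPCA.B (1.96 to 2.9), 0.132 in KPCA.A (0.105 to 0.164) and 0.125 in KPCA.C (0.104 to 0.15). For Cxcl10 it was 10.3 in KPCA.B (5.76 to 20.2), 0.225 in KPCA.A (0.184 to 0.274) and 0.476 in KPCA.C (0.337 to 0.686). For the lectin gene Mgl2 it was 1.56 in KPCA.B (1.41 to 1.72) and 0.574 in KPCA.C (0.496 to 0.667), and for the ribonuclease gene Ear2 1.85 in KPCA.B (1.54 to 2.24) and 0.391 in KPCA.C (0.294 to 0.528). The versican gene Vcan had 1.88 in KPCA.A (1.12 to 3.33), 2.76 in KPCA.B (1.76 to 4.38) and 0.546 in KPCA.C (0.43 to 0.7).

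The scavenger receptor gene Cd163 had 7.49 in KPCA.A (3.53 to 19), 73.4 in KPCA.C (13.1 to 2902) and 0.185 in KPCA.B (0.0981 to 0.324), where the KPCA.C value rests on 1 UMI in Arg1-low cells. For Ccl8 the fold was 4.35 in KPCA.C (2.57 to 8) and 0.633 in KPCA.B (0.557 to 0.719). The vascular gene Pecam1 had 2.68 in KPCA.A (1.9 to 3.87), 4.33 in KPCA.C (2.46 to 8.44) and 0.396 in KPCA.B (0.265 to 0.579). Flt1, a receptor gene for vascular growth factor, had 1.56 in KPCA.A (1.1 to 2.26) and 0.44 in KPCA.B (0.338 to 0.566). Beside them, the endothelial list summed to 194, 155 and 172 CPM in cleared Arg1-high cells and 114, 719 and 69.6 CPM in cleared Arg1-low cells from KPCA.A, KPCA.B and KPCA.C, and its part was not tested.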

How the results depend on the processing

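The share of Arg1-high cells moved most with its own limits. With a limit of 1000 CPM of Arg1 it was 74.8%, 26.1% and 76.7% in KPCA.A, KPCA.B and KPCA.C, and with 5000 it was 39.6%, 10.6% and 58.7%. The stricter cell filter gave 67.3% in KPCA.A, and dropping the Retnla limit 47.5% in KPCA.B. Thinning to 1000 UMIs gave 14.7% in KPCA.B and 86% in KPCA.C, 6 C1q UMIs 86.8% in KPCA.C, and cleared cells 86.3% in KPCA.C. KPCA.B stayed lowest in each of these settings.

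With all cells, the 188 genes called higher became 91 with 6 C1q UMIs, 87 in cleared cells, 104 without the top 5% of UMIs, 92 with the mean of per-cell CPM and 25 after thinning, where only 546 genes were measured. The 335 called lower became 197 under the stricter filter, 64, 84, 147, 204 and 2 under the settings just named, and 944 with a minimum of 10 UMIs. Leaving out each library gave 207 to 410 higher and 405 to 832 lower, since fewer libraries must then pass.

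In cleared cells, the 87 called higher became 137 against cells with no Arg1 UMI, 23 after thinning and 133 with a minimum of 10 UMIs, and leaving out a library gave 117 to 211. The 84 called lower became 9 after thinning, 49 with 20 CPM added and 127 with 10 UMIs, and 142 to 182 without a library. Between lines, 1 and 20 CPM added gave 758 and 115 calls in place of 357, and against Retnla-high cells 20 CPM gave 140 in place of 279.

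Among list medians of at least 1.5-fold and called genes, directions turned in the following cases, and the cause was not tested. The median of the MHC class II list with all cells became -0.30 with 6 C1q UMIs, -0.78 in cleared cells, -0.15 with the mean of per-cell CPM, -0.026 after thinning and -0.030 without KPCA.C, with 1.04 without KPCA.A at the other end. The complement and scavenger median became -0.014 with 6 C1q UMIs and -0.039 in cleared cells, and that of macrophage identity genes -0.0014 in cleared cells. Under median-of-ratios scaling in cleared cells these last 2 were 0.049 and 0.089. Among genes lower in cleared cells, the mean log2 ratio with all cells was 0.20 for Cx3cr1, 0.19 for Clec12a, 0.065 for Ms4a4c, 0.23 for Slamf9, 0.43 for H2-Eb1, 0.15 for Cd40, 0.33 for Ccl5 and 0.56 for Il10ra. Smaller medians changed sign as well: with all cells, that of the interferon list was -0.037, with 0.19 at an Arg1 limit of 1000 CPM, 0.17 without KPCA.A, 0.068 under median-of-ratios scaling and 0.020 without KPCA.B. The integrated stress response median was -0.25 with all cells and 0.19 in cleared cells, the arginine median 0.032 and -0.25 without KPCA.B, the angiogenic and matrix median 0.32 and -0.022 with no Retnla limit, and the dissociation stress median 0.53 and -0.11 after thinning. In cleared cells, thinning turned the complement and scavenger median to 0.48 and the immune suppression median to -0.29.

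No paired analysis was possible because the replicate numbers of the labels pair no samples, each line having 1 library. The classes were compared within each library, with no test, since Arg1 chose them. Depth limits rare genes such as Nos2 and the KPCA.B class of 68 cells.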
